A study of Mus musculus with 610 samples.

Results

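Cd163l1 and Scart2, the mouse genes of the scavenger receptors SCART1 and SCART2, were 2 of the 48 assays read by quantitative PCR in 610 single thymus cells. They were taken by the names of their assays, not by their values. Each receptor crosses the membrane once and carries a row of scavenger receptor cysteine-rich domains outside the cell, the fold it shares with the macrophage haptoglobin-haemoglobin receptor CD163 and with the WC1 receptors of cattle. In cattle, WC1 marks gamma delta T cells. In the mouse, SCART1 and SCART2 are known from gamma delta T cells, SCART2 above all from those that make interleukin 17 (Tgd17 cells), and their ligands are not well established.

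All cells came from the thymus and were sorted as live, TCRd-, negative for lineage markers and CD44+. B6 DN1d cells (223 cells in 3 capture runs) came from C57BL/6J mice at developmental stage p7-10 and were also CD25-, CD24+ and cKit-. Tcrd-/- DN1d cells (86 cells in 1 run) had those same surface markers and stage and came from mice with the Tcrd tm1Mom allele, which lack gamma delta T cells. Rag1-/- cKit- cells (223 cells in 3 runs) came from mice with the Rag1 tm1Mom allele, which cannot rearrange T cell receptor genes. They were CD25- and cKit-, were sorted without CD24 and were taken at the younger stage p0-2. B6 DN2 cells (78 cells in 1 run) came from C57BL/6J mice at p7-10 and were CD25+ and cKit+. A run here is the set of cells that share the token between group and capture site in their titles, which was read as 1 capture. The labels name no animals behind a run, so the spread behind each p-value is that of runs and may be technical. Since no run held more than 1 group, run and group cannot be told apart, nor can genotype, age and the CD24 gate between Rag1-/- cKit- and B6 DN1d cells.

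The genes lie next to each other on mouse chromosome 7, in the same direction and with 0 annotated genes between them. The 300 bases around each start site (mostly before it) are shown from RefSeq (GRCm38.p6, + strand). The windows are chr7:140218017-140218316 for Cd163l1 and chr7:140247051-140247350 for Scart2. Scart2 is listed there as 5830411N06Rik and was taken at the first of its 3 starts. Capitals mark an E-box (CANNTG), bound by E proteins such as those of Tcf3 and Tcf12, or a GATA motif (AGATAA, here read on the other strand as TTATCT).
Cd163l1: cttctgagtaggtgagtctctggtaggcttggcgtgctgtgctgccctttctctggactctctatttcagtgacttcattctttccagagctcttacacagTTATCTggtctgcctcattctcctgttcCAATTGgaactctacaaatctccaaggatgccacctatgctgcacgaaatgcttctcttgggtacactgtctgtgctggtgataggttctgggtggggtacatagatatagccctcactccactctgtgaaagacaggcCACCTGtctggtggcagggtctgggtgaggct
Scart2: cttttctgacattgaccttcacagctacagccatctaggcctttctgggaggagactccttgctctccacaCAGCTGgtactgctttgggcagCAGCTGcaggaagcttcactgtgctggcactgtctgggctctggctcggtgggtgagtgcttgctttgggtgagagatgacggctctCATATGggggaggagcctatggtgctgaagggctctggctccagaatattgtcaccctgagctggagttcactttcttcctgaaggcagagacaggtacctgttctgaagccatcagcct
Of 4 motifs searched on both strands, the Cd163l1 window held 2 E-boxes and 1 GATA motif and the Scart2 window 3 E-boxes. An E-box was present in 72.3% and the GATA motif in 11.2% of the 32851 mouse promoter windows of this length. The HMG box motif AACAAT, of the kind Sox13 binds, and the TCF/LEF motif CTTTGA were in neither window and in 10.7% and 16% of all windows. A match describes these letters and shows no binding.

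Detection means a threshold cycle (Ct) below 24, the value at which unsuccessful reactions were deposited. Level means 24 minus Ct, in PCR cycles, so that an undetected reaction is 0 and 1 cycle is about a doubling of template. Levels of different assays cannot be set against each other. Cells gave a mean of 19.8 ± 0.528 detected assays in B6 DN1d (SD, n = 3 runs), 23.1 ± 1.40 in Rag1-/- cKit- (n = 3), 30.9 in Tcrd-/- DN1d (1 run) and 28.5 in DN2 (1 run). Gapdh, a housekeeping gene, was detected in every cell. Rag1 was not analysed here, and the Tcrd constant region had no assay. The junction Vg2-Jg1, which reads a rearranged receptor gene, was found in 0 of 223 Rag1-/- cells (a count of 0 allows up to 1.35%) and in 92 of 223 B6 DN1d cells. Of the stage markers, Spi1 and Cpa3 were found in 63 and 78 of the 78 DN2 cells and in 16 and 38 of the 223 B6 DN1d cells. Cpa3 was also found in 62 of 86 Tcrd-/- cells and in 0 of 223 Rag1-/- cells. Myeloid Csf1r was found in 0 B6 DN1d, Tcrd-/- and Rag1-/- cells, while Csf2rb2 and Gp49a, 2 further genes of the myeloid list, were found in 34 and 37 B6 DN1d cells.

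Cd163l1 was found in most Rag1-/- cKit- cells, in 50 of 86 Tcrd-/- DN1d cells, in a minority of B6 DN1d cells and in 1 DN2 cell. It was detected in 69 of 89 (77.5%), 44 of 52 (84.6%) and 60 of 82 (73.2%) cells of Rag1-/- runs 1 to 3. In B6 DN1d runs 1 to 3 it was detected in 24 of 72 (33.3%), 22 of 70 (31.4%) and 11 of 81 (13.6%) cells. Every Rag1-/- run stood above every B6 DN1d run, and B6 DN1d run 3 was the lowest of its group. The Tcrd-/- run lay between the groups with 50 of 86 cells (58.1%, exact 95% interval 47 to 68.7%). Among DN2 cells, 1 of 78 had Cd163l1 (1.28%, 0.0325 to 6.94%), so that the transcript was rare there. These exact intervals cover counting error only.

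The levels gave the same order. Mean Cd163l1 levels over all cells were 11.1, 11.7 and 10.4 in the Rag1-/- runs, 3.43, 2.79 and 1.19 in the B6 DN1d runs, 5.91 in the Tcrd-/- cells and 0.102 in the DN2 cells. The share of positive cells was not the whole of it, since positive cells also differed. Among cells with Cd163l1 the mean level was 14.3, 13.8 and 14.2 in the Rag1-/- runs and 10.3, 8.88 and 8.79 in the B6 DN1d runs. Tcrd-/- cells with Cd163l1, at 10.2, stood inside the B6 DN1d range and below every Rag1-/- run. The positive Rag1-/- cells formed a compact band: 156 of the 173 had a level of 12 or more, and 14 had one from 11 to 13. Only 6 of 57 positive B6 DN1d cells and 9 of 50 positive Tcrd-/- cells reached 12, and 12 and 17 cells of these groups lay from 11 to 13. The edge of 12 was chosen after the values were seen and serves as a description.

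**Figure D1:**
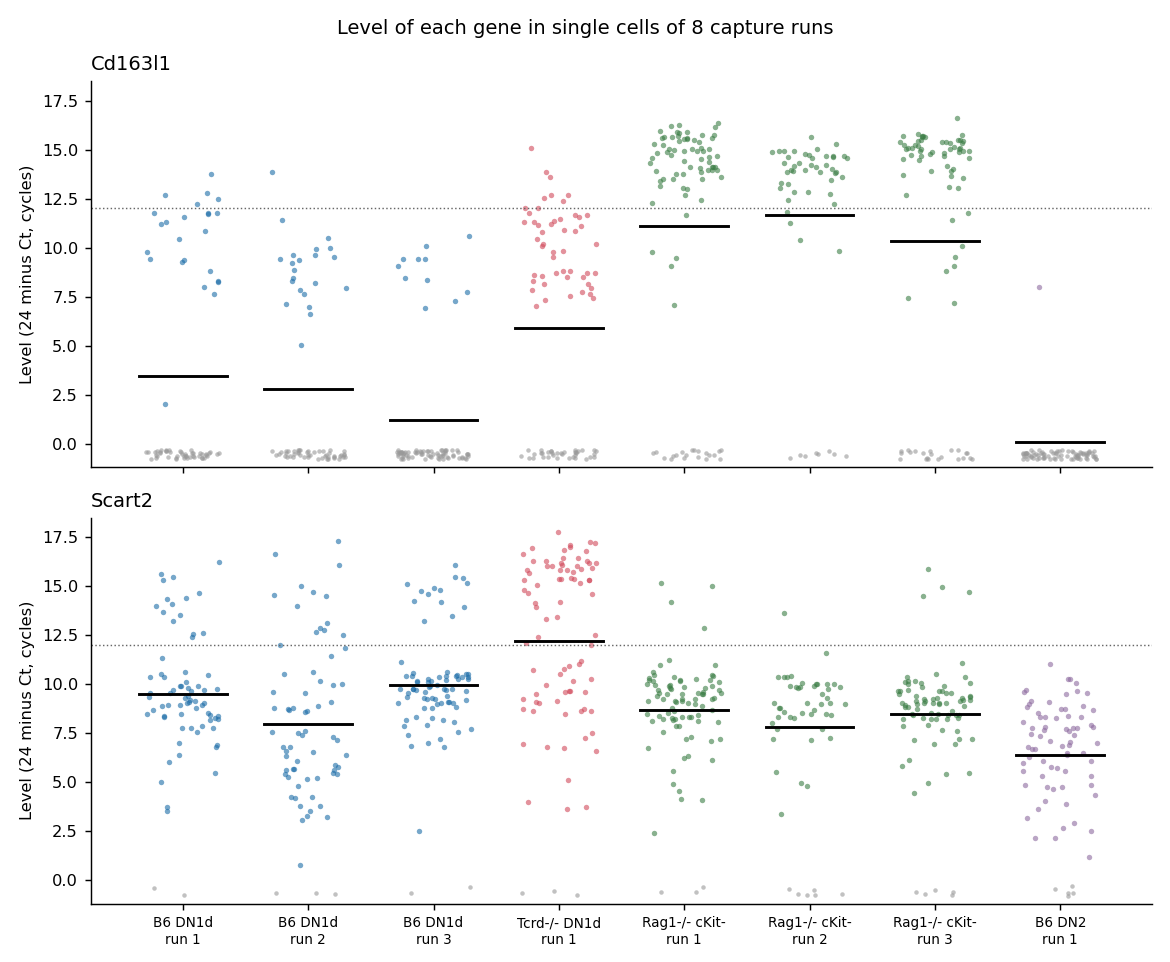
Level of Cd163l1 (top) and Scart2 (bottom), 24 minus Ct in PCR cycles, in each cell of the 8 capture runs. Coloured points are cells with the gene detected, grey points below 0 are undetected cells spread for visibility, black lines are run means over all cells and the dotted line is level 12. Rag1-/- cKit- cells fill the upper band of Cd163l1 (156 of 223 cells at 12 or more), whereas B6 DN1d and Tcrd-/- DN1d cells fill that of Scart2 (43 of 223 and 49 of 86).

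Against B6 DN1d, the detection of Cd163l1 was higher in Rag1-/- cKit- cells by 2.38 ± 0.38 on the logit scale (SE; limma on a value per run, Benjamini-Hochberg over 47 assays, adjusted p = 1.3e-05). It was higher in Tcrd-/- DN1d by 1.41 ± 0.53 (limma, adjusted p = 0.0296), and the estimate for DN2 was -2.86 ± 0.53 (limma, adjusted p = 6.27e-05). Calls were common in this panel: 28 of 47 assays (59.6%) were called for Rag1-/- against B6 DN1d, 26 (55.3%) for Tcrd-/- and 31 (66%) for DN2. By level, Rag1-/- cells were 8.57 ± 0.70 cycles higher (limma, adjusted p = 0.000767; 55.3% of assays called). Tcrd-/- DN1d cells were 3.43 ± 0.98 cycles higher (limma, adjusted p = 0.0287; 61.7% called). DN2 differed by -2.37 cycles with an interval of -4.91 to 0.165 (limma, adjusted p = 0.0945; 57.4% called), which did not pass.

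The Tcrd-/- difference was the least firm of these. Among cells with 20 to 29 other assays detected, Cd163l1 was found in 51.5% of Tcrd-/- cells and in 51.7, 65.6 and 33.3% of cells of B6 DN1d runs 1 to 3, which differed by 0.0502 in logits. In that window the Rag1-/- runs stayed at 80.8, 84.4 and 78.6%, above every B6 DN1d run, and DN2 at 1.59%. The Tcrd-/- detection call also ended without B6 DN1d run 3 (1.05, limma, adjusted p = 0.0794) and without Rag1-/- run 1 or 2 (adjusted p = 0.0833 and 0.0516), and the level call without B6 DN1d run 2 (3.59 cycles, adjusted p = 0.0639) or Rag1-/- run 1 (adjusted p = 0.0548). That level call also ended in the window of 20 to 29 other assays (0.404 cycles, adjusted p = 0.883) and in detected cells only (0.833, limma). Without B6 DN1d run 3 the DN2 level difference of -3.01 cycles was called (limma, adjusted p = 0.0226).

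Between the remaining groups, Rag1-/- and Tcrd-/- cells differed by 0.96 on the logit scale for detection with an interval of -0.145 to 2.07 (limma, adjusted p = 0.125; 57.4% of assays called). By level Rag1-/- cells were 5.13 ± 0.98 cycles above Tcrd-/- cells (limma, adjusted p = 0.0109; 55.3% called). Cd163l1 was lower in DN2 than in Tcrd-/- cells, with a logit difference of -4.27 (adjusted p = 9.31e-06; 68.1% called) and of -5.80 cycles (adjusted p = 0.0110; 51.1% called). It was lower in DN2 than in Rag1-/- cells, with differences of -5.23 (adjusted p = 2.52e-08; 57.4% called) and -10.94 cycles (limma, adjusted p = 0.000717; 51.1% called).

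Scart2 was found in nearly all cells of every group, so that its variation lay in the level. It was detected in 70 of 72 (97.2%), 67 of 70 (95.7%) and 79 of 81 (97.5%) cells of B6 DN1d runs 1 to 3. The Rag1-/- runs gave 86 of 89 (96.6%), 46 of 52 (88.5%) and 77 of 82 (93.9%), the Tcrd-/- run 83 of 86 (96.5%) and the DN2 run 73 of 78 (93.6%). The groups overlapped, and none of the 6 comparisons of detection passed in limma, with 0 also at an unadjusted p under 0.05. The difference was -0.65 on the logit scale for Rag1-/- against B6 DN1d (interval -1.42 to 0.128, adjusted p = 0.138), and this was called without Rag1-/- run 1 (-0.946, limma, adjusted p = 0.0449).

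**Figure D2:**
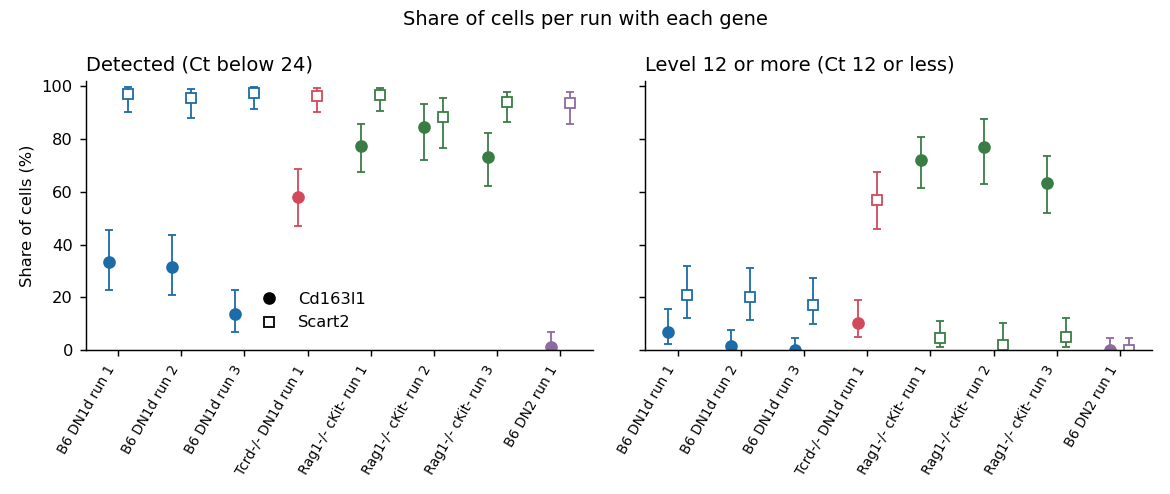
Share of cells per run, in percent, with each gene detected (left) or at a level of 12 or more (right). Filled circles are Cd163l1, open squares Scart2, colours the 4 groups, and bars exact 95% binomial intervals for counting error. Scart2 detection is above 88% in all 8 runs, and the shares at 12 or more run in opposite order for the 2 genes between Rag1-/- cKit- and Tcrd-/- DN1d cells.

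Mean Scart2 levels were 9.49, 7.97 and 9.95 in B6 DN1d runs 1 to 3, 8.69, 7.83 and 8.46 in the Rag1-/- runs, 12.2 in the Tcrd-/- cells and 6.40 in the DN2 cells. The Tcrd-/- run was the highest and the DN2 run the lowest of the 8, while the B6 DN1d and Rag1-/- runs overlapped. The cells fell into a main range, with medians of 8.90 in B6 DN1d, 9.06 in Tcrd-/-, 9.05 in Rag1-/- and 7.12 in DN2 cells among detected cells below 12, and an upper range of 12 to 17.8. B6 DN1d run 2 lay lower, with a median of 7.52 over its detected cells against 9.24 and 9.77 in runs 1 and 3. That upper range held 15 of 72 (20.8%), 14 of 70 (20.0%) and 14 of 81 (17.3%) cells of the B6 DN1d runs and 49 of 86 (57%, 45.8 to 67.6%) of the Tcrd-/- run. It held 4 of 89, 1 of 52 and 4 of 82 cells of the Rag1-/- runs, or 3.77% ± 1.61 (SD, n = 3) against 19.4% ± 1.86 in B6 DN1d. In DN2 it held 0 of 78 cells (up to 3.85% is possible at that count) and the highest DN2 cell reached 11.01. Few cells lay near the edge: 12 B6 DN1d, 6 Tcrd-/-, 4 Rag1-/- and 1 DN2 cell had levels from 11 to 13. Of the 12 B6 DN1d cells, 7 were in run 2, where the ranges were less clearly apart. The upper range was filled by the DN1d sorts of both genotypes and scarce in Rag1-/- cells, also among cells with 20 to 29 other assays (34.5, 34.4 and 48.1% in B6 DN1d, 51.5% in Tcrd-/- and 4.11, 3.13 and 5.71% in Rag1-/-). It was drawn after the values were seen and was not tested.

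In the test of mean levels, Scart2 was 3.06 ± 0.84 cycles higher in Tcrd-/- than in B6 DN1d cells (SE; limma, adjusted p = 0.0256). It was lower in DN2, with a difference of -2.73 ± 0.84 (limma, adjusted p = 0.0494). The difference for Rag1-/- was -0.81 ± 0.59, with an interval of -2.33 to 0.721 (limma, adjusted p = 0.280). Rag1-/- and DN2 cells were lower than Tcrd-/- cells, with differences of -3.86 ± 0.84 and -5.79 ± 1.03 (limma, adjusted p = 0.0138 and 0.00689), and DN2 against Rag1-/- gave -1.92 with an interval of -4.08 to 0.238 (limma, adjusted p = 0.115). These are the comparisons in which 51.1 to 61.7% of assays were called, as given above for Cd163l1. The Tcrd-/- call ended without Rag1-/- run 1 or 3 (limma, adjusted p = 0.0507 and 0.0509), among cells with 20 to 29 other assays (1.25 cycles, adjusted p = 0.280), and in detected cells only (3.20, adjusted p = 0.0642). The DN2 call ended with medians (-1.81, adjusted p = 0.365), in detected cells only (-2.58, adjusted p = 0.0583) and without B6 DN1d run 1 or 3 or any single Rag1-/- run (adjusted p 0.0669 to 0.105), while without B6 DN1d run 2 the Rag1-/- difference of -1.39 and the DN2 against Rag1-/- difference of -1.92 were called (adjusted p = 0.0394 and 0.0294).

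The receptors were not alternatives at the level of detection, because Scart2 had a Ct below 24 in nearly all cells. Whether every such reaction reflects Scart2 transcript was not tested. Of the 610 cells, 267 had both, 14 had Cd163l1 without Scart2, 314 had Scart2 without Cd163l1 and 15 had neither. Among B6 DN1d cells 56 had both and 1 had Cd163l1 alone, and 12 of the 14 cells with Cd163l1 alone were Rag1-/-. Only Rag1-/- runs 2 and 3 and the DN2 run had at least 5 cells without Scart2, and there the log odds ratio of the pair was -0.59 and -1.48, neither called (limma, adjusted p = 0.473 and 0.111). The 1 DN2 cell with Cd163l1 also had Scart2, so that the negative sign of -1.48 was set by the 0.5 added to each cell of the table. In the other runs co-detection was counted and not tested. The difference between logit shares of Scart2 and Cd163l1 was 4.02, 3.73 and 5.27 in the B6 DN1d runs and 1.99, 0.312 and 1.66 in the Rag1-/- runs. These did not overlap, with a group difference of -3.02 and an exact two-sided permutation p of 0.1, the smallest that 3 against 3 runs allow.

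The level of Scart2 went with Cd163l1 in B6 DN1d cells and did not in Rag1-/- cells. In B6 DN1d runs 1 to 3, cells with Cd163l1 had mean Scart2 levels 2.06, 3.56 and 2.94 cycles above those of cells without it. In the Rag1-/- runs the differences were -0.371, -1.58 and -0.836, so that all runs of each group had 1 sign. The mean difference was 2.85 ± 0.46 in B6 DN1d (SE; limma, adjusted p = 0.000486) and -0.93 ± 0.46 in Rag1-/- (limma, adjusted p = 0.358), and the groups differed by -3.78 ± 0.66 (limma, adjusted p = 0.00333). B6 DN1d cells with Cd163l1 also had more assays detected, 25.8, 25.4 and 28.4 per cell in runs 1 to 3 against 17.5, 17.2 and 17.8 in cells without it. With the number of other assays as covariate the B6 DN1d difference was 0.824 (limma, adjusted p = 0.287) and the difference between groups -1.94 (adjusted p = 0.0931), so that neither was called.

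Counted by cells, 25 of 57 B6 DN1d cells with Cd163l1 (43.9%) and 18 of 166 without it (10.8%) had Scart2 at 12 or more. By run these shares were 37.5 and 12.5%, 36.4 and 12.5%, and 72.7 and 8.57%. In the Tcrd-/- run the shares were alike at 58% of 50 and 55.6% of 36 cells, and the Scart2 levels differed by 0.356 cycles. In Rag1-/- cells 5 of 173 with and 4 of 50 without Cd163l1 were in the upper range. Cells with both genes at 12 or more numbered 10 of 610. They were 5 of 86 Tcrd-/- cells, of which 9 had Cd163l1 and 49 Scart2 there, 4 of 223 Rag1-/- cells (156 and 9) and 1 of 223 B6 DN1d cells (6 and 43).

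**Figure D3:**
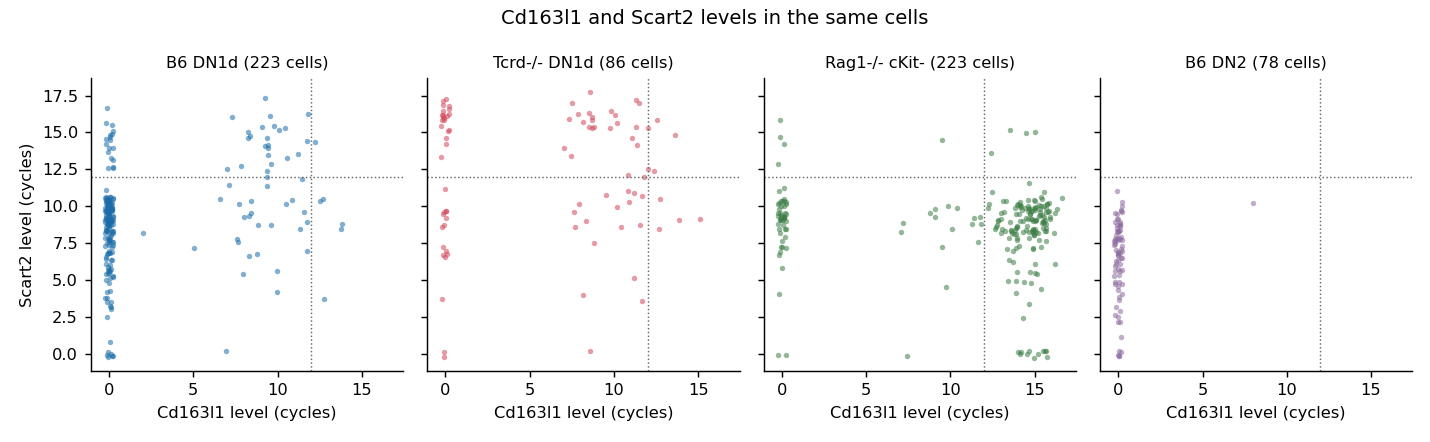
Level of Scart2 (vertical) against Cd163l1 (horizontal), 24 minus Ct in PCR cycles, 1 point per cell and 1 panel per group. Undetected reactions sit at 0 with a small spread, and dotted lines mark level 12. B6 DN1d and Tcrd-/- cells spread upwards on Scart2, Rag1-/- cells lie to the right on Cd163l1 at Scart2 levels near 9, and 10 cells of 610 are beyond both lines.

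In B6 DN1d, most cells with Cd163l1 also had Sox13, Maf and Blk of the Tgd17 list, while Etv5 was found in 43, Tcf12 in 41, Il17re in 35 and Il7r in 25 of the 57. Sox13, an HMG box transcription factor needed by Tgd17 cells, was found in 23 of 24, 22 of 22 and 11 of 11 cells with Cd163l1 and in 13 of 48, 9 of 48 and 15 of 70 cells without it. Blk, a Src family kinase of the same lineage, was found in 22 of 24, 20 of 22 and 10 of 11 cells against 9 of 48, 9 of 48 and 9 of 70. Thus 56 of 57 cells with Cd163l1 had Sox13, whereas 37 of 166 cells without it did. The link was measured as a natural log odds ratio per run over 39 genes. It was 4.45 ± 0.46 for Sox13 (SE; limma, adjusted p = 1.83e-16), 4.14 for the transcription factor Myb, 3.66 for Blk, 3.01 for the ETS factor Etv5, 2.48 for the interleukin 17 receptor subunit Il17re and 2.31 for the transcription factor Maf. The SE is equal for all genes because the spread was in effect pooled over them. The limma p-values thus used 156 degrees of freedom, which treats genes read in the same cells as independent. Their size is not evidence from 3 runs alone. Without moderation 20 of the 39 genes were called, with Sox13, Myb, Blk, Etv5, Il17re and Maf among them.

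Of the 39 genes, 23 were called (59%), 19 with more and 4 with less co-detection. Of the 9 other genes of the Tgd17 list in the panel, 8 were called with more and 0 with less, with a list median of 2.48 beside 0.976 over all genes tested. The ninth, the interleukin 7 receptor gene Il7r, was not linked (-0.26, limma, adjusted p = 0.670), being found in 25 of 57 cells with Cd163l1 and 87 of 166 without. The junction Vg2-Jg1 was found in 44 of 57 cells with and 48 of 166 cells without Cd163l1 (2.70, adjusted p = 1.32e-07), and Vd4-Jd1 in 10 of 57 and 6 of 166 (1.82, adjusted p = 0.000248). Of the myeloid list, Csf2rb2 was found in 0 of 57 cells with Cd163l1 and 34 of 166 without (-2.24, adjusted p = 7.87e-06), and Gp49a in 1 and 36 cells (-1.93, limma, adjusted p = 0.000105). Bhlhe40, a basic helix-loop-helix repressor, was found in 1 and 43 cells (-2.16, adjusted p = 1.58e-05). Zbtb16, which encodes the innate lymphocyte factor PLZF, was found in 3 and 15 cells and was not called (-0.31, limma, adjusted p = 0.649). Compared among cells with like numbers of other assays, 15 genes were called, 13 higher and 2 lower, and Sox13, Myb and Blk had log odds ratios of 4.08, 3.47 and 3.24. Sox4 and Tcf12 of the Tgd17 list and Gp49a (-1.02, limma, adjusted p = 0.0541) were not called there, and Csf2rb2 stood at -1.19. Without moderation Bhlhe40 was not called (adjusted p = 0.0509).

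**Figure D4:**
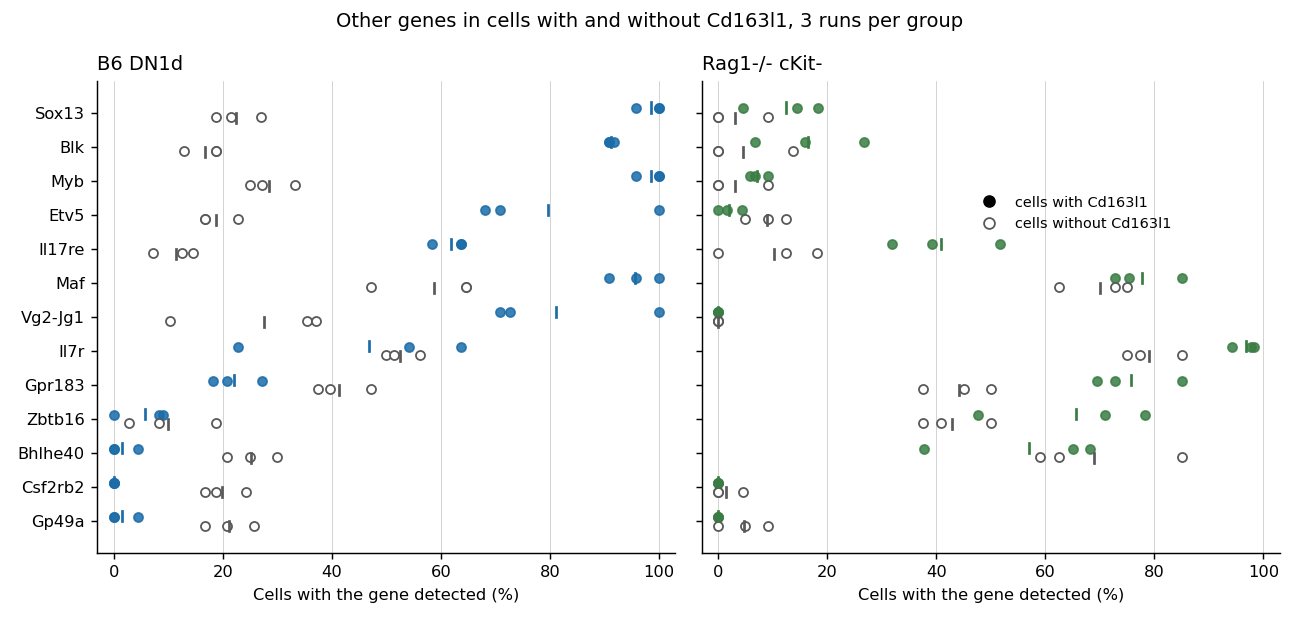
Share of cells, in percent, with each of 13 genes among cells with Cd163l1 (filled) and without it (open), 1 point per run and a tick at the mean of 3 runs. The left panel is B6 DN1d and the right panel Rag1-/- cKit-. Sox13, Blk and Myb are in over 90% of B6 DN1d cells with Cd163l1 and in under 30% of Rag1-/- cells with it.

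In Rag1-/- cKit- cells Cd163l1 stood in other company than in B6 DN1d cells. Sox13 was found in 23 of 173 cells with Cd163l1 and 2 of 50 without (0.87 ± 0.46, limma, adjusted p = 0.142), and Blk in 30 and 3 cells (1.06, adjusted p = 0.0622). Most Rag1-/- cells with Cd163l1 therefore had neither gene detected, although their Cd163l1 level was the higher. Positive links were called for 5 of 39 genes and negative ones for 6, together 11 (28.2%). Il17re was found in 27 of 69, 14 of 44 and 31 of 60 cells with Cd163l1 and in 0 of 20, 1 of 8 and 4 of 22 without it (1.87, limma, adjusted p = 0.000893). Il7r was found in 167 of 173 and 40 of 50 cells (2.00, adjusted p = 0.000445), and Gpr183, an oxysterol receptor of migrating lymphocytes, in 131 and 23 cells (1.37, adjusted p = 0.0161). These 3 were also those called when runs with fewer than 5 cells with or without the gene were left out. The Il17re call ended without Rag1-/- run 1 (1.17, limma, adjusted p = 0.0973) and without moderation (adjusted p = 0.127), that of Il7r without moderation (adjusted p = 0.121), and that of Gpr183 without Rag1-/- run 2 (1.35, adjusted p = 0.0745) or run 3 (1.21, adjusted p = 0.129). Without Rag1-/- run 1, 2 or 3, the number of genes called was 5, 6 and 6. The links of Tcf7 and Id2 (1.73 and 1.67) rest on few negative cells, and those of Gp49a, Csf2rb2, Etv5, Cpa3, Vd4-Jd1 and Vg2-Jg1 on 0 to 8 positive cells of 223, the value for genes in 0 cells being set by the 0.5 added to each cell of the table. Zbtb16 was found in 117 of 173 and 22 of 50 cells (0.95, limma, adjusted p = 0.103).

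The link differed between Rag1-/- and B6 DN1d cells for 19 of 39 genes (48.7%), 5 stronger and 14 weaker in Rag1-/-. Among the genes called, the difference in log odds ratio was -3.72 for Myb, -3.58 for Sox13, -2.60 for Blk and -1.87 for Maf, and 2.26 for Il7r, 2.21 for Gpr183 and 1.64 for Bhlhe40 (limma, adjusted p from 6.08e-07 to 0.0295). Some rest on few cells. Myb, Sox13 and Blk were found in 14, 25 and 33 of 223 Rag1-/- cells, of which 2, 2 and 3 lacked Cd163l1. Bhlhe40 was found in 1 of 57 B6 DN1d cells with Cd163l1. All the named genes were also called when runs with fewer than 5 cells with or without the gene were left out. In strata of other assays the differences for Maf (-1.07, adjusted p = 0.204) and Bhlhe40 were not called, nor were those for Il7r, Maf and Bhlhe40 without moderation, and that for Maf ended without B6 DN1d run 3 (-1.40, limma, adjusted p = 0.0876). The 14 weaker genes include Vg2-Jg1, Vd4-Jd1 and Cpa3, found in 0 of 223 Rag1-/- cells. Their Rag1-/- values were set by the 0.5 added to each cell of the table, so that they show no difference in linkage. Etv5, also among the 14, was found in 8 of 223 Rag1-/- cells. Il17re stood at 2.48 in B6 DN1d and 1.87 in Rag1-/-, and its difference of -0.60 was not called (adjusted p = 0.530). In the Tcrd-/- run, 0 of 39 genes were called (0.0%) by limma, 6 at an unadjusted p under 0.05 and 0 without moderation. Sox13, Myb, Etv5 and Maf were each in 49 of 50 Tcrd-/- cells with Cd163l1 and in 34, 30, 33 and 33 of 36 cells without it, so that nearly all cells of that run had them.

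Co-detection with Scart2 could be fitted only on the 6, 5 and 5 cells without it in Rag1-/- runs 2 and 3 and in DN2. In Rag1-/- 8 of 36 genes were called (22.2%), 3 higher (Id2 at 2.31, Tcf3 E12 at 2.11 and Sox4 at 1.79) and 5 lower, of which Cpa3 and Rag2 at -2.31 and Dna2 at -1.84 were the most negative (limma, adjusted p from 0.00149 to 0.0120). In DN2 11 of 36 were called (30.6%). Cpa3 and Rag2 were found in 0 Rag1-/- cells, so that their values are set by the 0.5 added. None of these calls held in limma with detection at Ct below 22, in strata of other assays, without moderation or with runs with under 5 cells with or without the gene left out. The mean Scart2 level was therefore compared between cells with and without each other gene as well, a measure chosen after the data were seen.

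In B6 DN1d the upper range of Scart2 held cells with several genes of the Tgd17 list. Sox13 and Maf were found in 43 of 43 cells at 12 or more, as was Myb of the progenitor list, Blk in 42 and Il17re in 27, and Csf2rb2, Gp49a and Bhlhe40 in 0. Among the 180 other cells Sox13 was found in 50, Blk in 37 and Il17re in 26. Il7r was found in 16 of the 43 and 96 of the 180. Blk gave the largest difference of mean level, 4.09 ± 0.59 cycles, followed by Gzma, a granzyme, at 3.71, Sox13 at 3.62, Il17re at 3.33 and Cd163l1 at 2.85 (limma, adjusted p from 0.000486 to 0.00138). Scart2 was lower in cells with Id2 (-1.50), Bhlhe40 (-1.43) and Csf2rb2 (-1.36; limma, adjusted p = 0.0210, 0.0187 and 0.0496).

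Of 40 genes, 24 were called (60.0%), 21 higher and 3 lower, and 8 of the 9 Tgd17 list genes were called higher and 0 lower (median 2.68 cycles beside 1.56 over all genes tested). Vg2-Jg1 went with 1.89 cycles more Scart2 (limma, adjusted p = 0.00651), while Vd4-Jd1, Il7r and Zbtb16 were not called (1.11, -0.50 and 0.0012). With the number of other assays as covariate 0 of 40 genes were called in B6 DN1d by limma, 7 at an unadjusted p under 0.05, and the nearest were Blk at 3.23 cycles (adjusted p = 0.0512) and Sox13 at 2.62 (adjusted p = 0.0548). Without B6 DN1d run 2, 15 genes were called.

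In the Tcrd-/- run 16 of 34 genes were called (47.1%), 12 higher and 4 lower. Cells with Myb and Tcf7 had Scart2 levels 6.10 cycles higher each, those with Blk 5.70 and those with Tox 5.04, while those with Csf2rb2, Cdh1, Gp49a and Bhlhe40 differed by -5.32, -5.04, -4.64 and -3.38 (limma, adjusted p from 0.000731 to 0.00293). These calls were not separate, since the 7 cells without Myb were the 7 without Tcf7, 6 of them were also among the 7 without Tox, and those 7 were the cells with Cdh1. With the number of other assays as covariate 7 genes were called, all higher, Blk, Myb, Tcf7 and Tox among them. Il17re and Cd163l1, which went with Scart2 in B6 DN1d, gave 0.451 and 0.356 cycles there (adjusted p = 0.738 and 0.730). In Rag1-/- cells 0 of 31 genes were called (0.0%) by limma, 5 at an unadjusted p under 0.05 and 0 without moderation. The Scart2 difference was -0.70 cycles by Sox13, 0.04 by Blk, -0.36 by Il17re and -0.08 by Gzma. Against B6 DN1d, 12 of 31 genes differed (38.7%), 1 higher and 11 lower, with differences of -4.32 for Sox13, -4.05 for Blk, -3.79 for Gzma, -3.78 for Cd163l1 and -3.69 for Il17re and of 2.08 for Bhlhe40 (limma, adjusted p from 0.00333 to 0.0269). With the number of other assays as covariate none of the 31 was called, 6 being at an unadjusted p under 0.05 (limma), and without moderation 2 were, Cd163l1 and Ccr9. The count was 7 without B6 DN1d run 1, 5 without B6 DN1d run 2, and 7 without Rag1-/- run 1 and again without run 3.

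**Figure D5:**
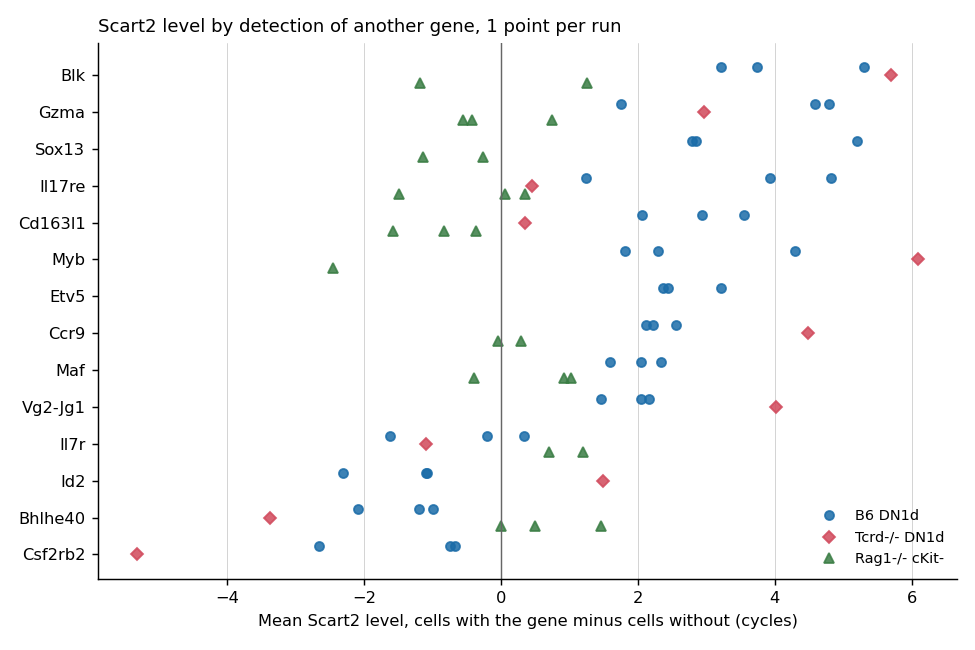
Mean Scart2 level of cells with a gene detected minus that of cells without it, in PCR cycles, for 14 genes, 1 point per run with at least 5 cells of each kind. Circles are B6 DN1d, diamonds Tcrd-/- DN1d and triangles Rag1-/- cKit-. For Blk, Gzma, Sox13, Il17re and Cd163l1 all B6 DN1d runs lie to the right of all Rag1-/- runs.

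Across the 8 runs the genes followed different company. The level of Cd163l1 ran most closely with Id2 (Pearson r = 0.922), Gpr183 (0.902) and Nfil3 (0.843), and its logit share with Gpr183 (0.886) and Il17re (0.758). The level of Scart2 ran most closely with Lef1 (0.956), Vg2-Jg1 (0.911) and Ccr9 (0.904). Its logit share varied little, and the closest genes were Gp49a (0.751), Gapdh (0.707) and Vg2-Jg1 (0.641), where Gapdh, found in all cells, reflects the number of cells alone. These are descriptions over 8 runs in 4 groups whose assays share the same cells, and no test was made of them. The Tcrd-/- run was the highest of the 8 in Scart2 level (12.2). Lef1, Vg2-Jg1 and Ccr9 were found in 79, 67 and 75 of its 86 cells, the largest shares of the 4 groups. Vg2-Jg1 was found in 0 of 223 Rag1-/- and 0 of 78 DN2 cells. How far the correlations rest on the Tcrd-/- run was not tested.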

How the data were processed

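Single cells were captured on a Fluidigm C1, reverse transcribed, preamplified for 18 cycles with pooled primers and read in 30 cycles of EvaGreen quantitative PCR, per the labels' protocols. The authors deposited 1 Ct value per assay and cell, not normalised. Of 29280 reactions 50.5% stood at exactly 24, taken here as not detected. The rule for calling Ct was not given in the sources used here, and reactions carry no counts of reads or molecules. No 2 cells held identical values.

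Runs, read from the token between group and capture site in the sample titles, were the replicates, with 1 value per gene and run: the empirical logit of the share detected (0.5 added to each side), the mean level, the natural log odds ratio of co-detection with Cd163l1 or Scart2 (0.5 added to each cell of its 2 by 2 table) or the difference in Scart2 level. Co-detection used genes found in 5 to 95% of the cells of the runs fitted, 39 for Cd163l1 and 36 for Scart2. Scart2 level used genes with at least 5 cells of each kind. Fits were made in limma 3.58.1 (R 4.3.3; lmFit, eBayes) with a mean per group, and groups of 1 run were assumed to vary like those of 3. All 8 runs entered for detection and level, with 4 residual degrees of freedom. Moderation over assays read in the same cells raised these to 20.0 for detection and 4.97 for level. The size of the detection p-values thus does not come from the runs alone, and no fit without moderation was made for detection or level. Co-detection took only runs with at least 5 cells with the member and 5 without it. This left out DN2 for Cd163l1 and kept only Rag1-/- runs 2 and 3 and DN2 for Scart2. Genes in the Scart2 level fits lacked the runs with too few cells. Values were adjusted by Benjamini-Hochberg with a threshold of 0.05 over the genes tested, 47 for groups. Vd5-Jd1, in 0 cells, was left out. Tables were made in Python 3.11.15 with pandas 2.3.3, numpy 2.4.6 and scipy 1.17.1, and figures with matplotlib 3.10.9. The scripts' tests were tested on simulated data.

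The named genes were the 5 most positive and 3 most negative of each set of partners, the 3 most alike across runs, and Sox13, Blk, Maf, Il17re, Il7r, Zbtb16, Vg2-Jg1 and Vd4-Jd1. Further genes were named after their values were seen. The rule picked 1 more gene, not reported here but included in counts. The members, lists and tests were chosen with earlier results of these data known. Alternatives were other Ct thresholds, medians, detected cells only, the Gapdh level of the cell, the number of other assays, no moderation and single runs left out.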

Additional observations from a re-analysis of the deposited data

Results flagged for a closer look

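Differences between Rag1-/- cKit- and B6 DN1d cells in what accompanied each receptor passed the test of the difference itself (limma). For co-detection with Cd163l1 all 3 runs of each group entered. For the level of Scart2, runs with too few cells with or without the gene were left out. Sox13 and Blk thus had fewer than 3 Rag1-/- runs there. For co-detection with Cd163l1 the log odds ratio, Rag1-/- minus B6 DN1d, was -3.72 for Myb, -3.58 for Sox13, -2.60 for Blk, -1.87 for Maf, 1.64 for Bhlhe40, 2.21 for Gpr183 and 2.26 for Il7r. For the level of Scart2 the difference between cells with and without a gene, compared in the same way, was -4.32 cycles for Sox13, -4.05 for Blk, -3.79 for Gzma, -3.78 for Cd163l1, -3.69 for Il17re and 2.08 for Bhlhe40. Among cells with like numbers of other assays the differences for Maf (-1.07, limma, adjusted p = 0.204) and Bhlhe40 in co-detection were not called, nor were those for Il7r, Maf and Bhlhe40 without moderation, nor that for Maf without B6 DN1d run 3 (adjusted p = 0.0876). Genotype, age, the CD24 gate and the run cannot be told apart in any of them, and with the number of other assays as covariate none of those for Scart2 was called.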

How the results depend on the processing

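Higher detection and level of Cd163l1 in Rag1-/- than in B6 DN1d cells and its lower values in DN2 than in Rag1-/- or Tcrd-/- cells kept direction and call under every alternative run on them. Calls against the single Tcrd-/- and DN2 runs were less firm. With 20 to 29 other assays, Cd163l1 in Tcrd-/- against B6 DN1d gave 0.0502 (logit) and 0.404 cycles, and Scart2 level 1.25 cycles, so that these 3 calls ended, while Cd163l1 level in DN2 against B6 DN1d gave -4.70 and Scart2 level in Rag1-/- against B6 DN1d -1.95, both now called. In detected cells only, the level differences in Tcrd-/- were 0.833 for Cd163l1 and 3.20 for Scart2, and -2.58 for Scart2 in DN2, and these 3 calls ended. With medians, Scart2 gave -1.81 in DN2, where the call ended, and 0.255 in Rag1-/-. Without single runs, Cd163l1 in Tcrd-/- ranged from 1.05 to 1.62 (logit) and 2.79 to 3.91 cycles, and in DN2 from -3.01 to -1.89 cycles. Scart2 level ranged from 2.47 to 3.46 in Tcrd-/-, -1.39 to -0.401 in Rag1-/-, -3.31 to -2.32 in DN2, all against B6 DN1d, and -2.17 to -1.74 in DN2 against Rag1-/-.

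Scart2 detection, close to its ceiling, had no stable sign. Tcrd-/- against B6 DN1d gave 0.00811 at Ct below 22, 0.168 at Ct below 20 and -0.227 to 0.0227 without single runs. Rag1-/- and DN2 against Tcrd-/- gave 0.244 and 0.0482 in the window of other assays, Rag1-/- against B6 DN1d -0.946 to -0.326 without single runs, and DN2 against Rag1-/- 0.0011 with cells under 12 assays left out and -0.334 to 0.286 without single runs.

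Genes called for co-detection with Cd163l1 numbered 15 in B6 DN1d when stratified by other assays. In Rag1-/- they numbered 3 without moderation, 3 with thin runs left out and 5 to 14 without single runs, and for Rag1-/- against B6 DN1d 12 stratified and 10 without moderation. For co-detection with Scart2 they numbered 0 in Rag1-/- and 0 in DN2 at Ct below 22, stratified, without moderation and with thin runs left out, and 8 in Rag1-/- without the DN2 run. For Scart2 level they numbered 0 with the number of other assays as covariate, 12 without moderation and 15 to 25 without single runs in B6 DN1d, and 0 to 1 in Rag1-/- without single runs. They numbered 7 in Tcrd-/- with the covariate, and for Rag1-/- against B6 DN1d 0 with it, 2 without moderation and 5 to 12 without single runs. Of single genes, with the covariate the Scart2 difference by Csf2rb2, Zbtb16 and Vg2-Jg1 in B6 DN1d was 0.262, -0.324 and -0.146 and by Blk in Rag1-/- -0.131. In cells with Scart2, Il17re and Il7r in Rag1-/- gave 0.123 and -0.117. Stratified co-detection gave 0.155 for Il7r in B6 DN1d and 0.125 for the group difference of Il17re. Without single runs, co-detection in B6 DN1d ranged from -0.622 to 0.307 for Il7r and -1.14 to 0.729 for Zbtb16. The Scart2 difference ranged from -0.915 to 0.0635 by Il7r, -0.713 to 0.716 by Zbtb16 and -0.501 to 2.71 by Vd4-Jd1 in B6 DN1d, from -1.18 to 1.26 by Blk and -0.719 to 0.201 by Il17re in Rag1-/-, and from -1.29 to 0.136 by Zbtb16 between these groups. In co-detection with Cd163l1, the counts of 12 and 10 for Rag1-/- against B6 DN1d include Vg2-Jg1, Vd4-Jd1 and Cpa3. Those genes were found in 0 Rag1-/- cells. The causes were not tested. The alternatives on Scart2 level were chosen after seeing the data. Fits on the runs of only the compared groups gave the same differences by construction. No paired analysis was possible because the labels give no replicate numbers shared by groups as pairs.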
